A study of Mus musculus with 6 samples.

Results

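The ErbB receptors and their ligands were followed in RNA sequencing of whole mammary glands from metformin-treated and control mice. The family was taken as 10 genes found by symbol among the 25160 features of the count table, namely 4 receptors (Egfr, Erbb2, Erbb3 and Erbb4) and 6 ligands (Areg, Nrg1, Nrg4, Btc, Hbegf and Tgfa). The mice were wild-type FVB/N females. The 3 control mice received saline, and the 3 metformin mice received metformin intraperitoneally at 200 mg/kg each day, starting at an age of 8 weeks and ending at 18 weeks, which is 10 weeks of treatment. Each library came from the fourth mammary glands of a mouse after removal of the lymph nodes, so epithelium, fat, stroma, nerve and immune cells were sequenced together. In such bulk tissue, fewer cells of a type and less RNA per cell cannot be told apart.

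ErbB receptors are tyrosine kinases that pair on binding a ligand of the epidermal growth factor family and then signal through the RAS-ERK and PI3K-AKT routes. Most of the ligands are made as membrane-anchored precursors and are released by ADAM metalloproteases. In the mammary gland the family is known for amphiregulin and EGFR in ductal growth at puberty, for ERBB2 as an oncogene, and for neuregulins and ERBB4 in alveolar differentiation and lactation.

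Library totals ran from 35375365 to 47370885 counts. Levels are given below as CPM, the unit in which every library is scaled to the same total. They follow TMM normalization, a scaling that removes differences in library composition. After that scaling 1 count was worth 0.0201 to 0.0304 CPM. Control 3 stood apart from the other controls. Genes of milk proteins took 3.72% and 3.67% of the counts in controls 1 and 2, against 0.0563% in control 3 and 0.0226% to 0.0817% in the metformin mice. The first principal component, which carried 34.8% of the variance, placed control 3 at 24.8, among metformin values of 14.8 to 35.9 and away from the other controls at −48.3 and −60.8. Family values are therefore given without control 3 as well where they moved most. Control 3 was picked out from these same data, so values without it show dependence on that mouse and are no separate support. The labels give all 3 controls the same genotype and treatment, and why control 3 differed was not tested, so each contrast below compares the groups as labelled. By the methods of the study each library was 1 mouse.

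All 10 genes passed the filter on low counts and were tested with edgeR's quasi-likelihood test over 15925 features. Following the criteria of the study, a gene was called when its level differed 1.5-fold or more and its unadjusted p was below 0.01, referred to here as the thresholds. The study applied these criteria to DESeq2 results, and DESeq2 is given here as an alternative. In edgeR Erbb3, lower in metformin glands, was the only one of the 10 past the thresholds, and the other 9 did not pass. The background was 1.70% of all features past the thresholds in either direction and 1.28% past them in the lower direction. With Benjamini-Hochberg adjustment over all features, 0 of the 10 and 0% of all features were under 0.05 in edgeR, while 7.53% of features and 1 of the 10 had an unadjusted p under 0.05. At adjusted p under 0.05, limma-voom likewise called 0% of features, and DESeq2 called 1.26% of features, Erbb3 among them. The log2 fold change (metformin over control) was below 0 for 8 of the 10 genes and above 0 for 2, with a median of −0.18, against 0.01 over all features tested. The median was −0.51 over the receptors and −0.07 over the ligands. These counts and medians depended on control 3. Without it, 5 of the 10 values were below 0 and 5 above, and the median was −0.65 over the receptors and 0.20 over the ligands. Adjusted p ran from 0.539 to 0.994 over the 10 in edgeR with Benjamini-Hochberg adjustment. The groups did not overlap for 1 of the 10 genes, against 13.2% of all features.

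**Figure D1:**
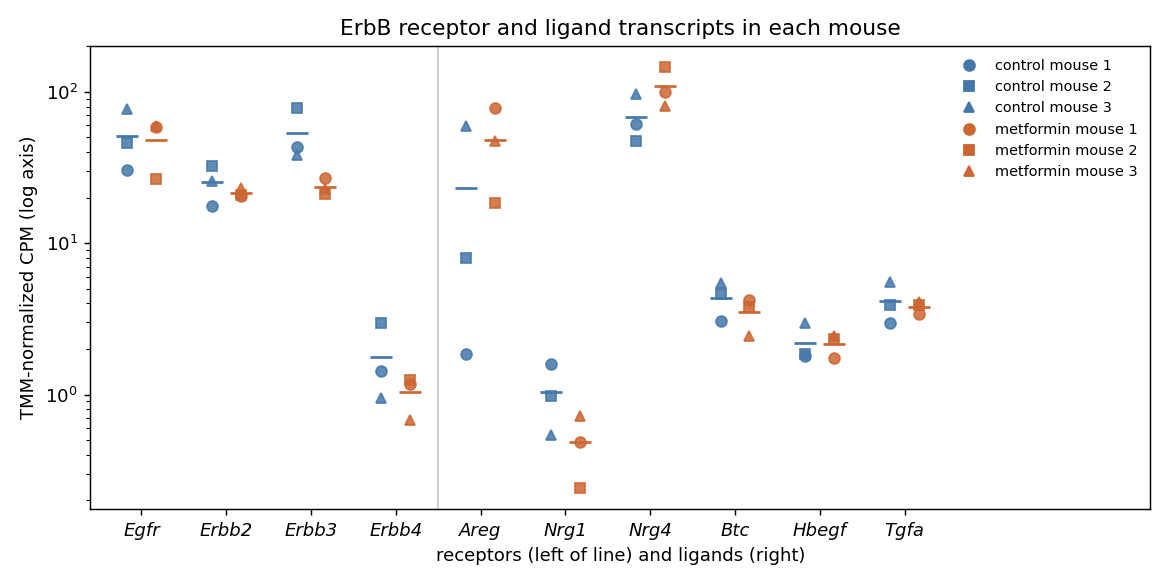
Level of each ErbB receptor and ligand in each mouse, in TMM-normalized CPM on a log axis, with points for the 3 control (blue) and the 3 metformin (orange) mice, a shape for each mouse number, and a line at each group mean. Erbb3 is the gene whose groups separate, with controls at 38.5 to 77.9 CPM and metformin mice at 21.2 to 26.9 CPM, and Areg spreads most widely, from 1.86 to 78.7 CPM.

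Among the receptors, Erbb3 differed most between the groups. ERBB3 binds neuregulins, has little kinase activity of its own, and signals through a partner such as ERBB2, mainly to PI3K. Erbb3 (ENSMUSG00000018166, GRCm38 chr10:128567523-128589652) was at 43.3, 77.9 and 38.5 CPM in controls 1, 2 and 3 and at 26.9, 21.2 and 22.9 CPM in metformin mice 1, 2 and 3. Every metformin mouse was below every control, and control 2 was the highest of the 6. The mean was 53.2 ± 21.5 CPM (SD, n = 3) in controls and 23.7 ± 2.96 CPM (SD, n = 3) in metformin mice, a 2.25-fold lower level. The log2 fold change was −1.17 with a standard error of 0.28 (95% interval −1.82 to −0.52), past both thresholds in edgeR's quasi-likelihood test but with a Benjamini-Hochberg adjusted p of 0.539. Separation of the groups in the lower direction was seen in 7.01% of all features.

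The call on Erbb3 held in 15 of 18 alternative settings, and its Benjamini-Hochberg adjusted p ranged from 0.0203 to 0.873 over them. DESeq2 on the same features gave an adjusted p of 0.0220, where 3.26% of features passed the thresholds, and limma-voom gave 0.330. The call was lost, on p alone, without metformin 2 (log2 fold change −1.09), without metformin 3 (−1.15) and in log2(FPKM + 1) values of all features. Leaving out control 2 gave the smallest change, −0.79 on the log2 scale.

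Erbb2 is the preferred partner of the other receptors and has no known ligand of its own. Erbb2 (chr11:98412470-98437716) was at 17.7, 32.4 and 25.9 CPM in controls and at 20.5, 20.7 and 23.2 CPM in metformin mice. The groups overlapped, with the metformin mice inside the range of the controls. Its log2 fold change was −0.24 with a standard error of 0.23 (95% interval −0.77 to 0.29, adjusted p = 0.815 by edgeR with Benjamini-Hochberg adjustment). The value was −0.02 without control 2 and −0.44 without control 1.

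Egfr, the receptor of amphiregulin, EGF and TGF-alpha, spread widely in both groups. Egfr (chr11:16752203-16918158) was at 30.6, 46.0 and 76.5 CPM in controls and at 58.8, 26.5 and 59.2 CPM in metformin mice. Control 3 was the highest and metformin 2 the lowest, and the groups overlapped. For Egfr the log2 fold change was −0.08 with a standard error of 0.40 (95% interval −1.02 to 0.85), and its sign depended on the libraries used, with 0.33 without control 3.

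Erbb4, a neuregulin receptor active in alveolar cells and in nervous tissue, was low in every mouse. Erbb4 (chr1:68032186-69108059) was at 1.43, 2.95 and 0.953 CPM in controls and at 1.18, 1.25 and 0.676 CPM in metformin mice. Control 2 was the highest, and control 3 lay among the metformin mice, so the groups overlapped. For Erbb4 the log2 fold change was −0.78 with a standard error of 0.52 (95% interval −1.99 to 0.42, adjusted p = 0.767 by edgeR with Benjamini-Hochberg adjustment) and was −0.20 without control 2 and −1.08 without control 3.

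Among the ligands, Areg had the widest spread. Amphiregulin binds EGFR, is made by hormone-sensing luminal cells, and is the main growth factor through which estrogen drives ductal outgrowth. Areg (ENSMUSG00000029378) occupies chr5:91139599-91148432, in a cluster of 4 ErbB ligand genes, Epgn, Ereg, Areg and Btc, that spans 375.5 kb. Its promoter is shown because this gene varied most of the 10. The 120 bases before its start site (RefSeq, GRCm38.p6, chr5:91139479-91139598, plus strand) hold, in capitals, a cyclic AMP response element and a TATA box.
Areg: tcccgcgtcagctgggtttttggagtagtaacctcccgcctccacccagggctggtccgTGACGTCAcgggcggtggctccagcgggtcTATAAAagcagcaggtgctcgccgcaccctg
RefSeq promoter windows of 300 bases were matched for 7 of the 10 genes, not for Erbb3, Nrg1 and Hbegf. TGACGTCA, which reads the same on both strands, was in the window of Areg alone among the 7, with its first base 61 bases before the start site, and in 1.79% of all 32851 windows. TATAAA, searched on both strands, was likewise in the window of Areg alone, 31 bases before the start site, and in 13.6% of all windows. GGGCGG, on either strand, was in those of Areg, Egfr and Tgfa and in 35.7% of all windows. CACGTG was in none of the 7 windows and in 7.15% of all windows. TGANTCA, on either strand, was in none of the 7 and in 7.81% of all. The estrogen response element, searched as GGTCA followed after any 3 bases by TGACC, was in none of the 7 and in 0.07% of all. None of these motifs overlaps another in the printed stretch of Areg. These matches describe the letters of the windows only.

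Areg was at 1.86, 7.97 and 59.5 CPM in controls 1, 2 and 3 and at 78.7, 18.5 and 47.3 CPM in metformin mice 1, 2 and 3. Controls 1 and 2 were the lowest of the 6, control 3 was the second highest, and the groups overlapped. The highest mouse was 42.4-fold above the lowest, and even the lowest had 61 counts. The mean was 23.1 ± 31.7 CPM (SD, n = 3) in controls and 48.2 ± 30.1 CPM (SD, n = 3) in metformin mice. The log2 fold change was 1.06 with a standard error of 1.07 (95% interval −1.43 to 3.55), with a Benjamini-Hochberg adjusted p of 0.832 in edgeR's quasi-likelihood test. The value was 0.47 without metformin 1, 0.52 without control 1, and 3.15 under limma-voom with quality weights on all 6 libraries.

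Without control 3, Areg was past the thresholds, with a log2 fold change of 3.28 and a standard error of 0.83 (adjusted p = 0.198 by edgeR with Benjamini-Hochberg adjustment). The other 2 controls then lay below all metformin mice. In that fit 2 of the 10 genes passed, Areg higher and Erbb3 lower, against 0.872% of features past the thresholds in the higher and 3.19% in the lower direction. The groups then did not overlap for 5 of the 10 genes, Erbb3, Erbb4 and Nrg1 being lower and Areg and Nrg4 higher, against 26.3% of all features, 13.5% in the lower and 12.8% in the higher direction.

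Nrg4, which activates ERBB4 and is known as a factor released by adipocytes, was the other ligand with a positive change. Nrg4 (chr9:55220222-55326844) was at 60.9, 47.3 and 97.4 CPM in controls and at 99.3, 146 and 81.2 CPM in metformin mice. Metformin 2 was the highest, and control 3 lay among the metformin mice. The mean was 68.5 ± 25.9 CPM (SD, n = 3) in controls and 109 ± 33.4 CPM (SD, n = 3) in metformin mice. On the log2 scale the difference was 0.67 with a standard error of 0.32 (95% interval −0.07 to 1.41, adjusted p = 0.702 by edgeR with Benjamini-Hochberg adjustment). It was 1.01 without control 3, just short of the p threshold, and 0.40 without metformin 2. Of its 6075 exonic bases 545 are shared with Fbxo22 or Gm15625, so reads there could be counted to either gene, and Fbxo22 itself had a log2 fold change of 0.01 with a standard error of 0.18.

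Nrg1 encodes neuregulin 1, a ligand of ERBB3 and ERBB4 that nerve and stromal cells also make. Nrg1 (chr8:31814551-32884029) was at 1.58, 0.983 and 0.538 CPM in controls and at 0.489, 0.241 and 0.726 CPM in metformin mice, from between 10 and 52 counts a mouse. Controls 1 and 2 were the highest, and control 3 lay among the metformin mice. For Nrg1 the log2 fold change was −1.08 with a standard error of 0.59 (95% interval −2.46 to 0.30, adjusted p = 0.731 by edgeR with Benjamini-Hochberg adjustment), and it was −1.39 without control 3. Gm26578 shares 482 of its 10351 exonic bases.

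Btc, Hbegf and Tgfa encode betacellulin, heparin-binding EGF-like growth factor and TGF-alpha. All of them activate EGFR, and betacellulin and HB-EGF also activate ERBB4. Their levels stayed between 1.76 and 5.57 CPM in all 6 mice, and the groups overlapped for each. Btc (chr5:91357261-91402994) was at 3.04, 4.60 and 5.45 CPM in controls and at 4.25, 3.78 and 2.45 CPM in metformin mice. Its log2 fold change was −0.32 with a standard error of 0.34 (95% interval −1.12 to 0.47), and −0.13 without control 3.

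Hbegf (chr18:36504927-36515805) was at 1.80, 1.85 and 2.96 CPM in controls and at 1.76, 2.33 and 2.43 CPM in metformin mice, a log2 fold change of −0.02 with a standard error of 0.35 (95% interval −0.83 to 0.80). Tgfa (chr6:86195223-86275719) was at 2.98, 3.91 and 5.57 CPM in controls and at 3.42, 3.92 and 4.10 CPM in metformin mice, a log2 fold change of −0.12 with a standard error of 0.31 (95% interval −0.84 to 0.60). Control 3 was the highest of the 6 mice for each of Btc, Hbegf and Tgfa. The sign of the Hbegf and Tgfa values changed with the libraries used, to 0.26 and 0.15 without control 3.

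**Figure D2:**
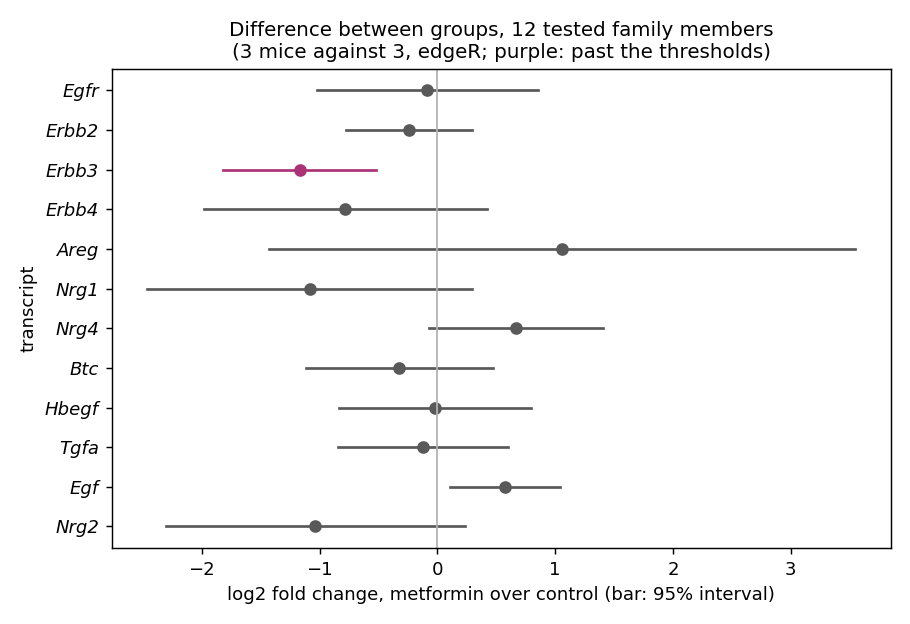
Log2 fold change (metformin over control) of the 10 genes, Egf and Nrg2, as points with 95% intervals from edgeR's quasi-likelihood fit on all 6 mice, with purple for genes past the thresholds. The interval of Erbb3, −1.82 to −0.52, lies below 0, that of Egf, 0.11 to 1.04, lies above it, and that of Areg, −1.43 to 3.55, is the widest.

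Of the other ErbB ligands, Egf and Nrg2 passed the filter and Ereg, Epgn and Nrg3 did not. Egf, the founding ligand of EGFR, was at 7.49, 7.43 and 8.58 CPM in controls and at 11.3, 13.6 and 10.0 CPM in metformin mice. All metformin mice were above all controls, but the log2 fold change of 0.57, with a standard error of 0.20 (adjusted p = 0.605 by edgeR with Benjamini-Hochberg adjustment), did not pass the thresholds. Nrg2, another neuregulin, was at 1.13, 2.49 and 1.10 CPM in controls and at 1.09, 0.385 and 0.826 CPM in metformin mice, so that all metformin mice were below all controls, by little in the case of metformin 1 and control 3. Its log2 fold change was −1.04 with a standard error of 0.54 (95% interval −2.30 to 0.23). Over all features, the groups did not overlap in 13.2%, and 7.01% separated in the lower direction. Ereg had at most 3 counts in any mouse, Epgn at most 12 and Nrg3 at most 2.

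Levels of different genes were compared as FPKM, which divides by transcript length, over all 6 mice. Nrg4 was the most abundant of the 10 at 45.1 ± 16.0 FPKM (SD, n = 6), followed by Areg at 28.0 ± 24.4 FPKM. Erbb3 at 6.01 ± 3.52, Egfr at 5.01 ± 2.14 and Erbb2 at 4.38 ± 1.24 FPKM formed the next group, whose ranges overlapped. Btc at 1.27 ± 0.424, Hbegf at 0.857 ± 0.240 and Tgfa at 0.825 ± 0.243 FPKM came after them. Nrg1 at 0.162 ± 0.0935 and Erbb4 at 0.108 ± 0.0652 FPKM were lowest. Between neighbours in this order the ranges over mice were apart only from Erbb2 to Btc and from Tgfa to Nrg1, and the order of the other neighbours was within their spread. The summed level of the 4 receptors was 93.0, 159 and 142 CPM in controls and 107, 69.6 and 106 CPM in metformin mice, with overlap. The sum of the 6 ligands was 72.1, 66.6 and 171 CPM in controls and 188, 175 and 138 CPM in metformin mice, where control 3 was again within the metformin range.

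The profile of each gene over the 6 mice was compared with those of 13326 annotated genes with a mean of at least 1 CPM, by the root mean square (RMS) difference of mean-centred log2 CPM. The 6 points share the libraries and the treatment groups, so these distances are descriptive. Among the profiles closest to Erbb3 were Scube1 (RMS 0.0726), Cdcp1 (0.0749), Esrp1 (0.129) and Rasef (0.133), against a median of 0.697 over all candidates. The nearest profiles to Areg, Bdnf at 0.529 and R3hdml at 0.537, were much farther from it, with a median of 1.91. Nrg4 lay closest to Tdrp (0.135) and Hcar2 (0.139), and Erbb4 to Npnt (0.154) and Ly6g6e (0.172). Within the family, Hbegf and Tgfa were the most alike (0.128), Erbb3 and Erbb4 differed by 0.396, and Areg and Nrg1 were farthest apart (2.46).

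Markers of the cell types in the gland were set beside Erbb3, Areg and Nrg4. The 9 general epithelial markers, none of which was at 0 in any mouse, summed to 869, 1603 and 897 CPM in controls and to 916, 585 and 731 CPM in metformin mice, which overlap. Of them 8 had a log2 fold change below 0, 2 fell past the thresholds (Cdh1 and Esrp1), and their median was −0.63. In the fit on all 6 mice, used for this list and the next, 1.28% of all features fell past the thresholds. The 6 luminal progenitor and alveolar markers had values below 0 throughout, with a median of −1.47, and 3 of them fell past the thresholds (Elf5, Aldh1a3 and Plet1). Their sum was 624 and 879 CPM in controls 1 and 2 but 194 CPM in control 3, inside the metformin range of 183 to 223 CPM. Without control 3 all 6 fell past the thresholds, with a median of −1.80. In that fit 3.19% of all features fell past them. Control 3 was the control with the low sum, so leaving it out widens the difference, and this count is no separate support. Per 100 CPM of the epithelial sum, Erbb3 was at 4.98, 4.86 and 4.30 CPM in controls and at 2.94, 3.62 and 3.14 CPM in metformin mice, so all metformin mice remained below all controls on that scale. The sum is weighted to its most abundant genes. Its single markers ranged in log2 fold change from −1.21 (Esrp1) to 0.36 (Cldn4), against −1.17 for Erbb3, and ratios to single markers were not examined. Per 100 CPM of the 7 basal markers, Erbb3 was at 10.9, 12.2 and 8.49 in controls and at 4.94, 7.09 and 5.33 in metformin mice, again without overlap. Per 100 CPM of luminal progenitor markers, it overlapped, at 6.94, 8.86 and 19.8 in controls and at 14.3, 11.6 and 10.3 in metformin mice. It also overlapped per 100 CPM of hormone-sensing markers, at 24.1, 27.7 and 8.34 in controls and at 9.38, 8.45 and 10.2 in metformin mice. These ratios were chosen after the values were seen, and the part of cell composition in the Erbb3 result was not tested beyond them.

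The 8 hormone-sensing luminal markers, among which Tnfsf11 had 0 counts in 2 mice and did not pass the filter, summed to 180, 281 and 462 CPM in controls and to 287, 250 and 225 CPM in metformin mice. None of the 7 tested was past the thresholds. Areg per 100 CPM of that sum was at 1.03, 2.84 and 12.9 in controls and at 27.4, 7.41 and 21.0 in metformin mice, so controls 1 and 2 remained the lowest and the groups overlapped. The 7 adipocyte markers, none at 0, summed to 9646, 8716 and 11666 CPM in controls and to 13528, 14613 and 10890 CPM in metformin mice. All 7 had a log2 fold change above 0 and none was past the thresholds. Nrg4 per 100 CPM of that sum was at 0.631, 0.542 and 0.835 in controls and at 0.734, 0.999 and 0.746 in metformin mice, which overlap. Brown fat markers were highest in metformin 2, at 4890 CPM, where Nrg4 was highest too, and next highest in control 1, at 2828 CPM, where Nrg4 was second lowest. The 5 Schwann cell markers ran from 242 to 418 CPM in controls and from 305 to 375 CPM in metformin mice.

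**Figure D3:**
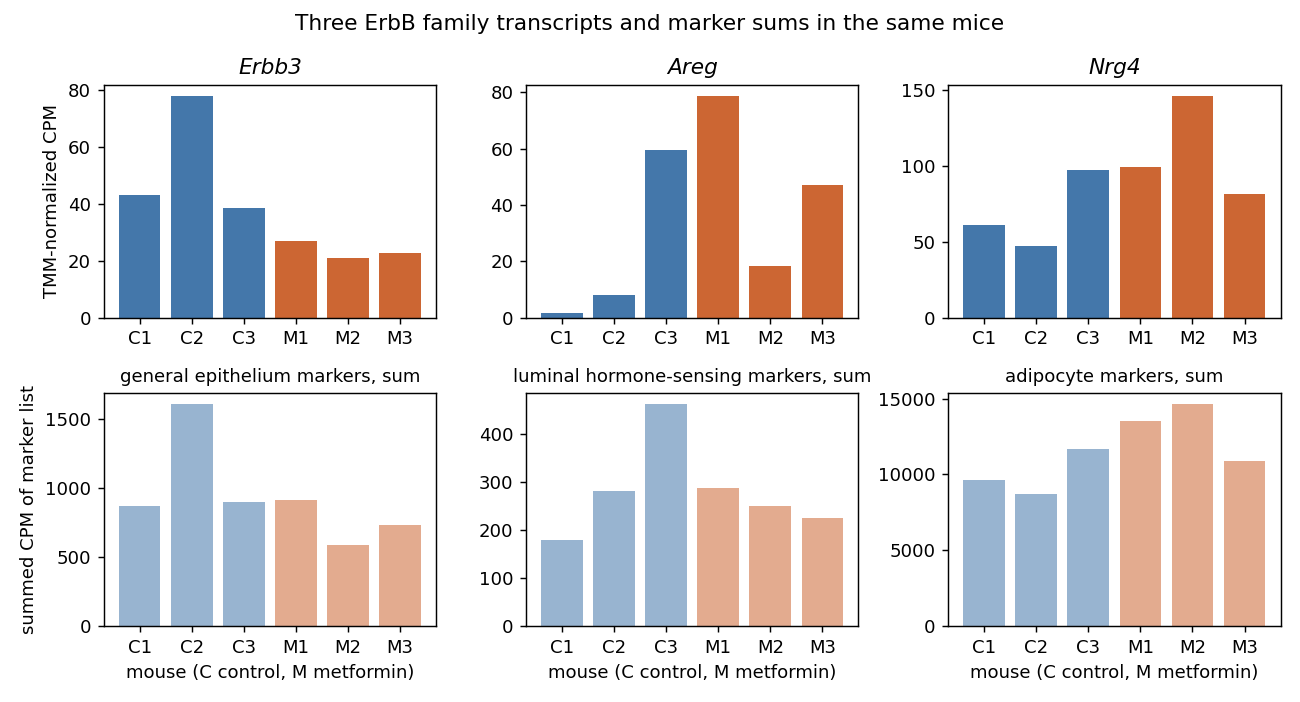
Levels of Erbb3, Areg and Nrg4 (upper bars, CPM) in each mouse, above the summed CPM of a marker list in the same mouse (lower bars), epithelial for Erbb3, hormone-sensing for Areg and adipocyte for Nrg4, with controls (C) in blue and metformin mice (M) in orange. Control 2 was highest for both Erbb3, at 77.9 CPM, and the epithelial sum, at 1603 CPM.

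The route from ligand release to transcription was examined through 5 lists holding 84 genes, all of which were tested. Of 9 genes for ligand shedding, 5 had a log2 fold change below 0 and 4 above, none was past the thresholds, and the median was −0.06. Adam9, an ADAM protease, was at −0.34. Bace1, a protease that cleaves neuregulin 1, was at −0.35 with a standard error of 0.16, and other genes overlap 2061 of its 6348 exonic bases. Adam15, which shares 1263 of its 6145 exonic bases with another gene, was at 0.29. Adam12 was at 0.67, and without control 3 it was at 1.32 and past the thresholds.

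Among 10 partners and chaperones of the receptors, 7 had values below 0 and 3 above, 1 fell past the thresholds, and the median was −0.29. That gene was Erbin, a scaffold protein that binds ERBB2 at the basolateral membrane of epithelial cells. Erbin was at 89.1, 113 and 99.3 CPM in controls and at 70.8, 61.2 and 54.1 CPM in metformin mice. All metformin mice were below all controls, with means of 62.0 ± 8.41 CPM (SD, n = 3) against 100 ± 11.8 CPM (SD, n = 3). The log2 fold change was −0.69 with a standard error of 0.17 (adjusted p = 0.539 by edgeR with Benjamini-Hochberg adjustment), and the call was lost without control 2, without metformin 2 and without metformin 3.

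Muc1 and Muc4 are membrane mucins of luminal cells known to associate with ErbB receptors, MUC1 with EGFR and MUC4 with ERBB2. Muc1 was at 31.6, 41.9 and 5.21 CPM in controls and at 4.93, 4.21 and 8.86 CPM in metformin mice, and Muc4 was at 11.2, 11.1 and 0.855 CPM in controls and at 2.05, 0.794 and 1.78 CPM in metformin mice. For both, control 3 lay among the metformin mice and apart from the other controls, as it did for the milk genes. Their log2 fold changes of −2.13 (standard error 0.68) and −2.32 (standard error 0.85) did not pass the thresholds. Without control 3, 4 of the 10 genes of this list fell past them, against 3.19% of all features in that fit. Tob1, an antiproliferative protein that binds ERBB2, was at 0.47 with a standard error of 0.21.

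The relay of adaptors, RAS-ERK and PI3K components held 30 genes, 18 with values below 0 and 12 above, none past the thresholds, and a median of −0.03. Src, a kinase that acts with the receptors, had the smallest p of the list. It was at 22.3, 35.4 and 17.7 CPM in controls and at 13.3, 10.7 and 17.7 CPM in metformin mice, with control 3 and metformin 3 nearly equal. Its log2 fold change was −0.86 with a standard error of 0.30 (adjusted p = 0.605 by edgeR with Benjamini-Hochberg adjustment), and it passed the thresholds without control 3, at −1.05. Pik3ca, the catalytic subunit of PI3K, was at −0.30, its regulatory subunit Pik3r2 at 0.26, and the docking protein Gab1 at −0.34.

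The 18 feedback inhibitors and turnover genes gave 13 values below 0 and 5 above, none past the thresholds, with a median of −0.08. Cblc, a ubiquitin ligase for EGFR, was at −1.06 with a standard error of 0.49. It was at 14.9 CPM in control 2 against 3.30 to 5.66 CPM in the other mice, and its value was −0.28 without control 2. The RAS inhibitor Rasa1 was at −0.29, and the ERK pathway inhibitors Spry1 and Spry4 were at 0.33 and 0.59. Among 17 genes that respond to ERK, 14 had values above 0 and 3 below, with a median of 0.33 against 0.01 over all features, but none was past the thresholds and the groups overlapped for each. Egr1, an immediate early transcription factor, was at 19.2, 31.6 and 18.3 CPM in controls and at 43.4, 11.2 and 82.0 CPM in metformin mice. Metformin 2 was the lowest of the 6 and metformin 3 the highest. Jun was at 0.39, Etv4 at 0.73 and Dusp5, an ERK phosphatase, at −0.92 on the log2 scale. Egr1 was at 0.98, and at 0.24 without metformin 3. Without metformin 2, the mouse lowest for Egr1, it was at 1.44 and past the thresholds, as were 183 features in that fit. Without control 3, 13 of the 17 values were above 0, the median was 0.33, and 1 gene in each direction passed the thresholds. In that fit 0.872% of all features passed in the higher and 3.19% in the lower direction.

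**Figure D4:**
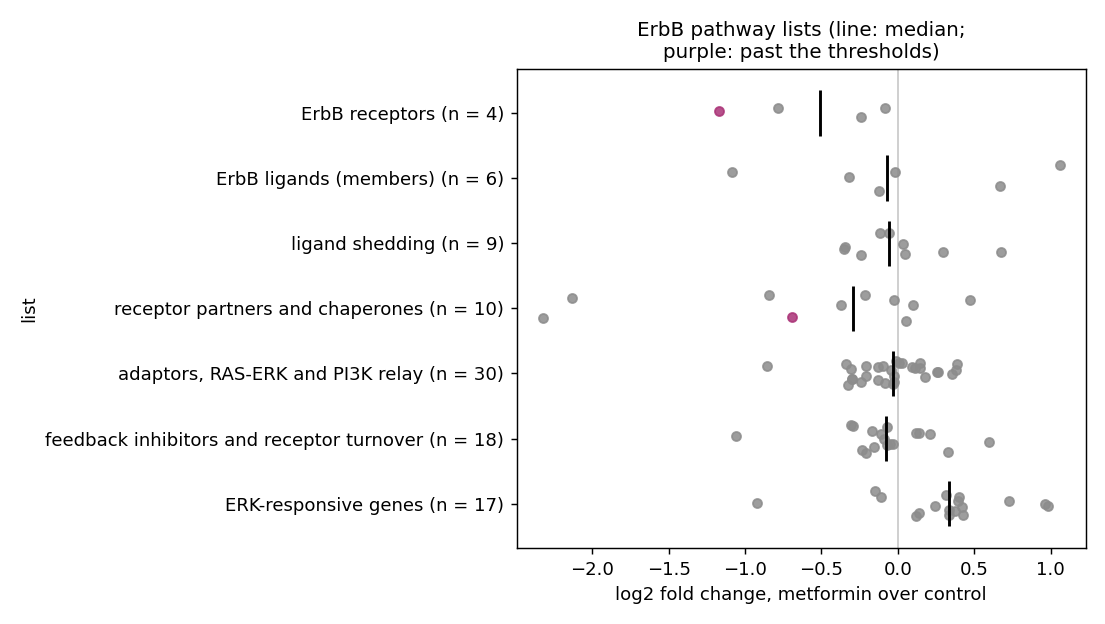
Log2 fold change (metformin over control) of each of the 4 receptors, the 6 ligands and the genes of the 5 pathway lists, a point per gene, with a line at each list's median and purple for genes past the thresholds. Erbb3, at −1.17, and Erbin, at −0.69 among the receptor partners, are the purple points, and the ERK-responsive list has the highest median, 0.33.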

How the data were processed

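Poly(A)-selected RNA of mammary glands from 3 control and 3 metformin mice was sequenced. The authors deposited gene counts and FPKM values for each mouse, and their processing notes name HISAT2, StringTie and mm10, with tool versions and the use of strand in counting not given in the sources used here. Counts are raw, and the FPKM values are normalized to transcript length and library size.

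Counts were filtered with filterByExpr, scaled by TMM and tested with edgeR 4.0.16 (R 4.3.3, quasi-likelihood F test, Benjamini-Hochberg adjustment over 15925 features), 3 against 3 mice, without covariates. Calls needed a fold change of 1.5 and an unadjusted p under 0.01. With 3 mice a group, an exact two-sided permutation test of a gene cannot go below p = 0.1, so none is given. The 18 alternatives were DESeq2 1.42.0, limma 3.58.1 (voom with quality weights, or log2(FPKM + 1 or 0.1)), other scalings and filters, a replicate block, and each library left out. The procedure was tested on simulated data. The named genes are the family, the up to 4 genes of each pathway list with the smallest p at a mean of at least 1 CPM, and the 5 (Erbb3) or 2 (others) nearest profiles, of which 1 is not reported here. Members and lists were chosen with earlier results of these data known, and Erbb3, Muc1 and Muc4 were among the study's own differentially expressed genes. Positions and exon overlap come from GENCODE vM21 (GRCm38), where 99.94% of 22036 Ensembl IDs were found. Other named genes also share exonic bases, among them Spry1 (710 of 2906), Dusp5 (547 of 2473) and Egf (1107 of 11275). Promoters come from RefSeq.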

Additional observations from a re-analysis of the deposited data

How the results depend on the processing

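Over 12 family genes (the 10, Egf and Nrg2) and 18 alternatives, 207 of 216 log2 fold changes kept their direction and 9 reversed, 3 lost the thresholds and 1 gained them. The reversed values were all of genes near 0. Egfr went to 0.29 under limma-voom and ranged from −0.35 to 0.33 with 1 library left out. Hbegf went to 0.080 under limma-voom and to 0.0065 under the replicate block, and ranged from −0.14 to 0.26 with 1 library left out. Tgfa went to 0.042 under limma-voom and ranged from −0.31 to 0.15. Erbb3 lost the thresholds with log2(FPKM + 1) on all features, where 0 of the 10 genes passed, and without metformin 2 or 3. The number of the 10 past the thresholds ranged from 0 to 2 with 1 library left out, the 2 being without control 3, where 5 of the 10 had groups without overlap. For 20 named pathway genes, 360 of 360 values kept their direction, 4 lost the thresholds (all Erbin) and 12 gained them (Muc1 in 4 settings, Muc4 in 3, Src in 2, and Adam12, Egr1 and Dusp5 in 1 each).

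Over all features, 271 passed the thresholds in edgeR, 519 in DESeq2, 570 in DESeq2 on all features, 165 and 98 with log2(FPKM + 1) on the same and on all features, and 107 to 666 with 1 library left out (177, 107 and 666 on omitting controls 1, 2 and 3, and 144 on omitting metformin 1). At adjusted p under 0.05, 0 were called in edgeR, 200 and 203 in DESeq2, and 0 to 96 with 1 library left out. The cause was not tested. Blocking on replicate number gave 118 features past the thresholds and −1.10 for Erbb3, which kept its call, while Erbin lost its call. Deviations of same-numbered mice did not correlate positively (r = −0.349, −0.137 and −0.0133 over genes). Deviations within a group of 3 depend on each other, so these values cannot decide whether the numbers pair the mice. The main fit treated the mice as unpaired. Counts were low for genes such as Nrg1, with as few as 10 counts a mouse. Ereg, Epgn and Nrg3 did not pass the filter on low counts and were not tested.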
